A study of Mus musculus with 12 samples.

Results

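The genes described here are those of the cytosolic ribosome, the particle that translates messenger RNA, as read in mouse CD8+CD28low regulatory T cells. Members were the rows of the array table that carried a single gene symbol beginning with Rpl (large subunit) or Rps (small subunit) and a digit, with Rplp0, Rplp1, Rplp2 and Rpsa added. The Rps6k kinase genes, Rps19bp1, pseudogenes and paralogs with an l suffix were left out. Where a gene had several rows, the row with the highest mean over 12 arrays stood for it. This gave 55 genes, 33 of the large and 22 of the small subunit, of 19938 genes measured. The rule used no difference between groups.

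RNA was taken from cells of C57Bl/6 mice that were wild type (WT) or deficient for Aire (AIRE ko, here KO), a transcriptional regulator best known from thymic epithelium. Cells were freshly isolated (native) or had spent 96 h in culture, stimulated by anti-CD3 beside allogenic antigen-presenting cells (activated). Each of the 4 groups (native WT, native KO, activated WT and activated KO) held 3 whole-transcript arrays that the titles call biological replicates. The labels used here leave unsaid the number of mice per array, which part of Aire was deleted and whether the antigen-presenting cells were removed before RNA was taken. The p-values therefore measure the spread between these arrays. In bulk RNA, fewer cells of a type and less RNA per cell cannot be told apart.

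A eukaryotic ribosome joins a small subunit, which reads the message, to a large subunit, which forms the peptide bond. Each subunit is built on ribosomal RNA from a set of proteins that are mostly present in a single copy. Messages of these proteins are among the most abundant of a cell and typically start with a C and a run of pyrimidines, the terminal oligopyrimidine or TOP motif, through which mTOR signalling controls their translation more than their amount. Resting T cells that receive a signal through the T cell receptor enlarge and raise their protein synthesis.

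The start motif is shown first for the genes with the highest level (Rps6, Rpl28), for Rplp2 and Rpl38, and for those that fell on activation and carry it (Rps15a, Rps21). Each window below holds the 15 bases before a transcript start annotated by RefSeq (GRCm38.p6) and the 15 bases from it, and capitals mark the C at the start with the pyrimidines that follow it.
Rps6, chr4:86857353-86857382, minus strand: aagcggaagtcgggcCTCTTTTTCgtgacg
Rpl28, chr7:4792950-4792979, plus strand: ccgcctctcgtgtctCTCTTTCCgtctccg
Rpl38, chr11:114668565-114668594, plus strand: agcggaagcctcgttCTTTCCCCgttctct
Rplp2, chr7:141447636-141447665, plus strand: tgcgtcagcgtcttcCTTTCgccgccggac
Rps15a, chr7:118116133-118116162, minus strand: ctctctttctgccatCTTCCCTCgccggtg
Rps21, chr2:180257364-180257393, plus strand: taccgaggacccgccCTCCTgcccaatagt
RefSeq start windows were at hand for 44 of the 55 genes, 51 windows in all, and 9 of these (17.6%) began with a C and at least 4 pyrimidines. The same was true of 823 of 32851 windows of all genes (2.51%). An annotated start that is off by a few bases would miss the motif, so its lack in the other windows says only that these letters were not at that position.

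The 300 bases around those starts (250 before and 50 after) were also searched on both strands for 3 other motifs. CCGGAA, the core bound by ETS factors, stood in 24 of the 51 windows (47.1%) and in 14.9% of all windows. TATAAA stood in 5 (9.80%), against 13.6% of all windows. AAGATGGCG, a YY1-type motif, stood in 0 of them, against 1.40% of all. The 100 bases before the start are shown for 3 genes that fell on activation, with CCGGAA in capitals. In this stretch Rps21 holds the motif at 2 places, and Rpl12 and Rpl23 do not hold it.
Rpl12, chr2:32961612-32961711, plus strand: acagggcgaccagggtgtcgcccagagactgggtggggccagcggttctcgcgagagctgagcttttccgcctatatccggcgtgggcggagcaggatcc
Rpl23, chr11:97782440-97782539, minus strand: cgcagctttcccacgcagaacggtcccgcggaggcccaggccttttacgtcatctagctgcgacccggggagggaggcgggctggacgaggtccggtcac
Rps21, chr2:180257279-180257378, plus strand: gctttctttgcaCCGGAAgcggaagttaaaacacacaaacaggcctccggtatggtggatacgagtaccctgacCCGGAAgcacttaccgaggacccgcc

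Values are the deposited log2 levels, so a difference of 1 is a doubling of signal. Background on an array was taken as the 95th percentile of 1027 olfactory receptor genes, a class not known in T cells. Aire itself lay between 5.55 and 5.92 and at or under background on all 12 arrays, with a KO minus WT difference of -0.13 ± 0.11 in native cells (SE, with n = 3 in each group) and 0.12 ± 0.11 after activation. It gave no check of the genotype labels. All 6 T cell markers (Cd3d, Cd3e, Cd3g, Cd8a, Cd8b1, Cd28) lay above background on every array, and Cd4 lay at or under it on every array. Activated KO array 3 stood apart: its T cell markers averaged 10.78 where the other 11 arrays gave 11.58 to 12.14, its values had the narrowest interquartile range (2.19) and its olfactory receptor median was the highest (6.34). The summed level of 7 neutrophil markers was 12.58, 9.47 and 11.77 on native KO arrays 1, 2 and 3 and 10.48, 9.07 and 8.33 on native WT arrays 1, 2 and 3. On every activated array all 7 lay at or under background, with sums of 8.20 to 8.61. Of 8 macrophage and dendritic cell markers 6 or 7 lay at or under background on native arrays and 7 or 8 on activated ones. Their summed level was 10.21, 8.88 and 9.90 on native KO arrays 1, 2 and 3. On native WT arrays 1, 2 and 3 it was 8.88, 8.91 and 8.53. Of 3 NK cell markers 0 lay at or under background on native and 2 or 3 on activated arrays. Of 4 B cell markers 2 to 4 did so on each array. Alas2, an erythroid marker, lay above background on native arrays only. Of 4 MHC class II genes H2-Ab1 alone was called higher on activation, by 3.33 ± 0.85 in WT, and the other 3 were called lower in KO. The summed level of these 4 was 9.97, 8.40 and 9.15 on native KO arrays 1, 2 and 3. On native WT arrays 1, 2 and 3 it was 8.21, 8.74 and 7.80. The part of these transcripts in the differences below was not tested.

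Ribosomal protein genes lay near the top of the scale in every group. Their median was 12.17, 12.08 and 12.32 on native WT arrays 1, 2 and 3, and 12.28, 12.25 and 12.22 on native KO arrays. After activation it was 12.12, 12.11 and 12.29 on WT arrays and 12.10, 12.19 and 11.93 on KO arrays. The medians of native and activated arrays overlapped in WT. In KO all 3 activated medians lay below the native ones, and that of activated KO array 3 was the lowest of all. On each array 48 to 50 of the 55 genes lay above the 90th percentile of all genes. Signals of different genes come from different probes, so their order is not an order of abundance.

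**Figure D1:**
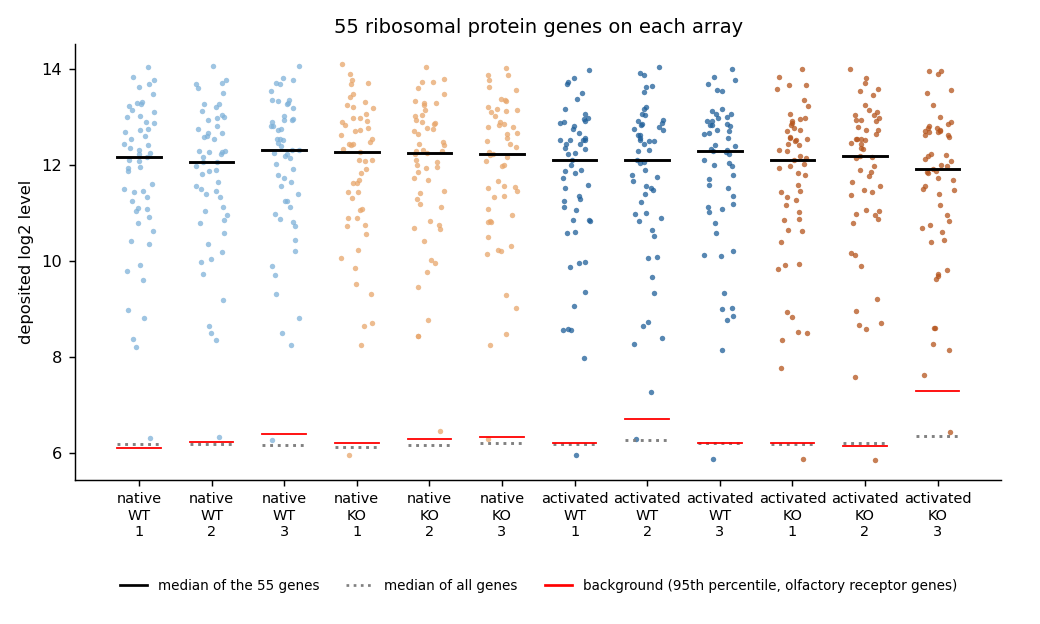
Deposited log2 level (vertical axis) of the 55 ribosomal protein genes on each of the 12 arrays, with 1 point per gene; black lines are the medians of these genes, dotted lines the medians of all genes and red lines the background. The black lines lie between 11.93 and 12.32 on all arrays, far above the dotted lines, and the lowest point on each array is Rps23rg1.

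Rps6, the small-subunit protein phosphorylated by S6 kinases, had the highest level. It read 14.05, 14.07 and 14.06 on native WT arrays and 14.11, 14.05 and 14.03 on native KO arrays. It read 13.97, 14.04 and 14.00 on activated WT arrays and 14.01, 14.00 and 13.96 on activated KO arrays. The activated arrays lay just below the native ones in both genotypes, by -0.06 ± 0.08 in WT (adjusted p = 0.754) and -0.07 ± 0.08 in KO (adjusted p = 0.674), so the test was not passed. Rpl28 and Rpl41, both of the large subunit, followed at means of 13.85 and 13.78. At the lower end stood Rpl14 (8.47) and Rpl22 (8.49), and last Rps23rg1 (6.17), a retrogene copy of Rps23 that the symbol rule lets in and that lay at or near background. The deposited values carry no saturation flag, so whether the highest levels were limited by the scanner was not tested.

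The spread between arrays of a group fell with the level. The pooled within-group SD was 0.03 for Rps6, 0.05 for Rpl28 and 0.05 for Rpl21. It was 0.24 for Rpl22, 0.25 for Rpl12 and 0.29 for Rplp2, an acidic stalk protein. Across the 55 genes, which share the same arrays, SD and mean level had a Pearson's r of -0.75 and a Spearman's rho of -0.75. The members' median SD was 0.11 (native WT), 0.07 (native KO), 0.13 (activated WT) and 0.14 (activated KO), where that of all genes was 0.10, 0.12, 0.16 and 0.25.

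The first question was what activation did to these genes in WT cells. Most hardly moved, 0 rose and 6 fell: Rpl12, Rpl30 and Rpl23 of the large subunit and Rps15a, Rps21 and Rps29 of the small. Called here means an adjusted p under 0.05, from a limma fit of group means over all 12 arrays with Benjamini-Hochberg adjustment over 19938 genes. Among all genes 9.72% were called higher and 10.9% lower, so the share of members that fell, 6 of 55, was near the background and the share that rose was below it. At an unadjusted p under 0.05 it was 0 higher and 10 lower of 55, where 6054 of 19938 genes had one in either direction. The difference was smaller than 0.25 in size for 42 of the 55 genes and at or over 0.5 for 3 (Rpl12, Rpl30 and Rps15a). The median difference was -0.05 (all genes -0.02), and the median size regardless of direction was 0.127 (all genes 0.180). Of the 6 falls 4 were among the 15 members with a mean under 11. The 40 members with a mean of 11 or more had 2 falls and a median size of 0.111. The 448 other genes of such a high level had a median size of 0.332, with 17.0% called higher and 19.0% lower.

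In KO cells the same 6 genes fell, as did Rplp1, Rps3a1 and Rps7, which makes 9 lower and 0 higher, where 11.4% of all genes were called lower and 8.72% higher. At an unadjusted p under 0.05 it was 1 higher, Rps2, and 16 lower of 55, where 5945 of 19938 genes had one in either direction. The median difference was -0.18 (all genes 0.02), with 46 of 55 genes below 0 (46.1% of all genes), against 35 of 55 in WT (54.0%). Without activated KO array 3 the KO median was -0.12 (all genes -0.05), and with array weights it was -0.08 (all genes -0.04). With dim genes left out it was -0.18 (all genes -0.09). Without activated KO array 2 it was -0.25 (all genes 0.05). The 448 other genes of high level had 14.3% called higher and 20.3% lower. Of the 40 members with a mean of 11 or more, 0 were called higher and 4 lower. The small subunit had a median of -0.15 in WT and -0.25 in KO, and the large subunit of -0.01 and -0.14. These medians are descriptions, and the difference between subunits was not tested. All 3 activated arrays lay below all 3 native ones for 16 genes in WT (23.4% of all genes did so) and for 26 in KO (17.0% of all genes). They lay above them for 2 genes in WT (17.5% of all genes) and 2 in KO (13.8%).

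**Figure D2:**
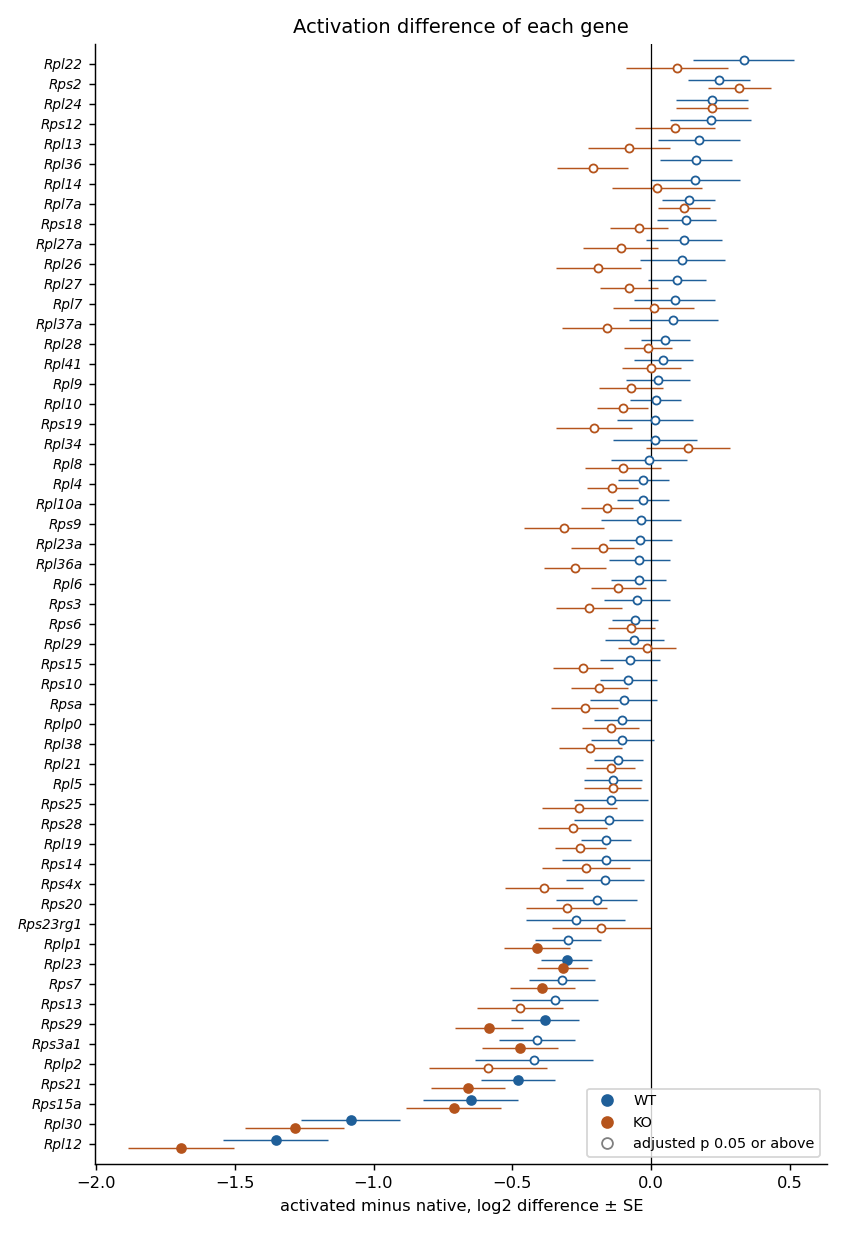
Activated minus native difference in log2 level (horizontal axis) of each of the 55 genes, ± SE of the limma fit with 3 arrays per group, in WT (blue) and KO (orange) cells; filled points passed the adjusted p of 0.05 and open points did not. Filled points occur at the bottom, below 0, and most open points lie within 0.25 of 0.

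Rpl12, a large-subunit protein of the base of the stalk, fell furthest. Its gene lies on chromosome 2 at 32961712 to 32964045 (GRCm38.p6). Levels were 8.98, 9.19 and 9.32 in native WT and 7.98, 7.29 and 8.16 in activated WT cells, and 9.31, 9.46 and 9.30 in native KO and 7.78, 7.59 and 7.63 in activated KO cells. Every activated array was more than 0.8 below every native array of its genotype. The difference was -1.35 ± 0.19 in WT (adjusted p = 0.000389) and -1.69 ± 0.19 in KO (adjusted p = 8.18e-05), or 2.55-fold and 3.23-fold lower.

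Rpl30, a large-subunit protein of the interface between subunits, came next (chromosome 15, 34440505 to 34443276). It read 9.80, 10.04 and 9.89 in native WT and 9.07, 8.40 and 9.02 in activated WT cells. In KO cells it read 9.86, 9.97 and 10.16 before and 8.95, 8.58 and 8.61 after activation. The groups did not overlap in either genotype, and activated WT array 2 was the lowest of all for both Rpl12 and Rpl30. The fall was 2.12-fold in WT (-1.08 ± 0.18, adjusted p = 0.00115) and 2.43-fold in KO (-1.28 ± 0.18, adjusted p = 0.000379).

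Rpl23, of the large subunit and one of those that bind MDM2 when ribosome assembly is disturbed, showed a small fall with little spread (chromosome 11, 97777526 to 97782439). It read 13.26, 13.27 and 13.35 in native WT and 12.95, 12.95 and 13.07 in activated WT cells, and 13.22, 13.34 and 13.33 in native KO and 12.97, 13.06 and 12.91 in activated KO cells. All activated arrays lay below all native ones. The difference was -0.30 ± 0.09 in WT (adjusted p = 0.0362) and -0.32 ± 0.09 in KO (adjusted p = 0.0299).

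Among small-subunit genes Rps15a fell most (chromosome 7, 118104374 to 118116147). It read 11.11, 11.56 and 11.25 in native WT and 10.85, 10.54 and 10.58 in activated WT cells, and 11.07, 11.41 and 11.34 in native KO and 10.40, 10.89 and 10.41 in activated KO cells. The groups did not overlap, although activated KO array 2 and activated WT array 1 came within 0.3 of the lowest native array. The fall was 1.57-fold in WT (-0.65 ± 0.17, adjusted p = 0.0177) and 1.64-fold in KO (-0.71 ± 0.17, adjusted p = 0.0113). The WT call was lost without native WT array 2 (adjusted p = 0.0870), and without activated WT arrays 2 (0.0543) or 3 (0.0647). The KO call was lost without native KO array 2 (0.0527) and with array weights (0.162).

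Rps21 (chromosome 2, 180257379 to 180258444) read 10.43, 10.37 and 10.74 in native WT and 9.88, 10.08 and 10.13 in activated WT cells. In KO cells it read 10.58, 10.70 and 10.50 before and 9.84, 10.13 and 9.83 after activation. Native and activated arrays were apart in both genotypes. The difference was -0.48 ± 0.13 in WT (adjusted p = 0.0237) and -0.66 ± 0.13 in KO (adjusted p = 0.00438, 0.0648 with array weights). The WT call was lost under 3 of 21 alternatives, including those without native WT array 3 (0.108) and without activated WT array 1 (0.0959).

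Rps29 (chromosome 12, 69157722 to 69159186) is a zinc-binding protein of the small subunit. It read 11.34, 11.12 and 11.57 in native WT and 10.85, 11.01 and 11.03 in activated WT cells, and 11.45, 11.46 and 11.46 in native KO and 10.88, 10.98 and 10.75 in activated KO cells. The native WT arrays were spread and the native KO arrays nearly equal, and no native array reached down to an activated one. The KO difference (-0.58 ± 0.12, adjusted p = 0.00533) passed whichever array was left out, with a highest adjusted p of 0.0223, but not with array weights (0.0699). The WT fall of 1.30-fold (-0.38 ± 0.12, adjusted p = 0.0455) sat at the threshold, and of 21 alternatives 14 put it past 0.05, with an adjusted p of up to 0.191.

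The genes called in KO cells alone had nearly the same sizes in WT cells. Rps3a1 (chromosome 3, 86137940 to 86142668) differed by -0.47 ± 0.14 in KO (adjusted p = 0.0292) and -0.41 ± 0.14 in WT (0.0544). Rps7 (chromosome 12, 28630847 to 28635953), which also binds MDM2, differed by -0.39 ± 0.12 in KO (adjusted p = 0.0365) and -0.32 ± 0.12 in WT (0.0821). Rplp1 (chromosome 9, 61913283 to 61914510), an acidic protein of the stalk that recruits elongation factors, differed by -0.41 ± 0.12 in KO (adjusted p = 0.0293) and -0.30 ± 0.12 in WT (0.104). The KO call of Rplp1 was lost under 7 of 21 alternatives, including leaving out any 1 array of the 6 compared other than activated KO array 3.

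**Figure D3:**
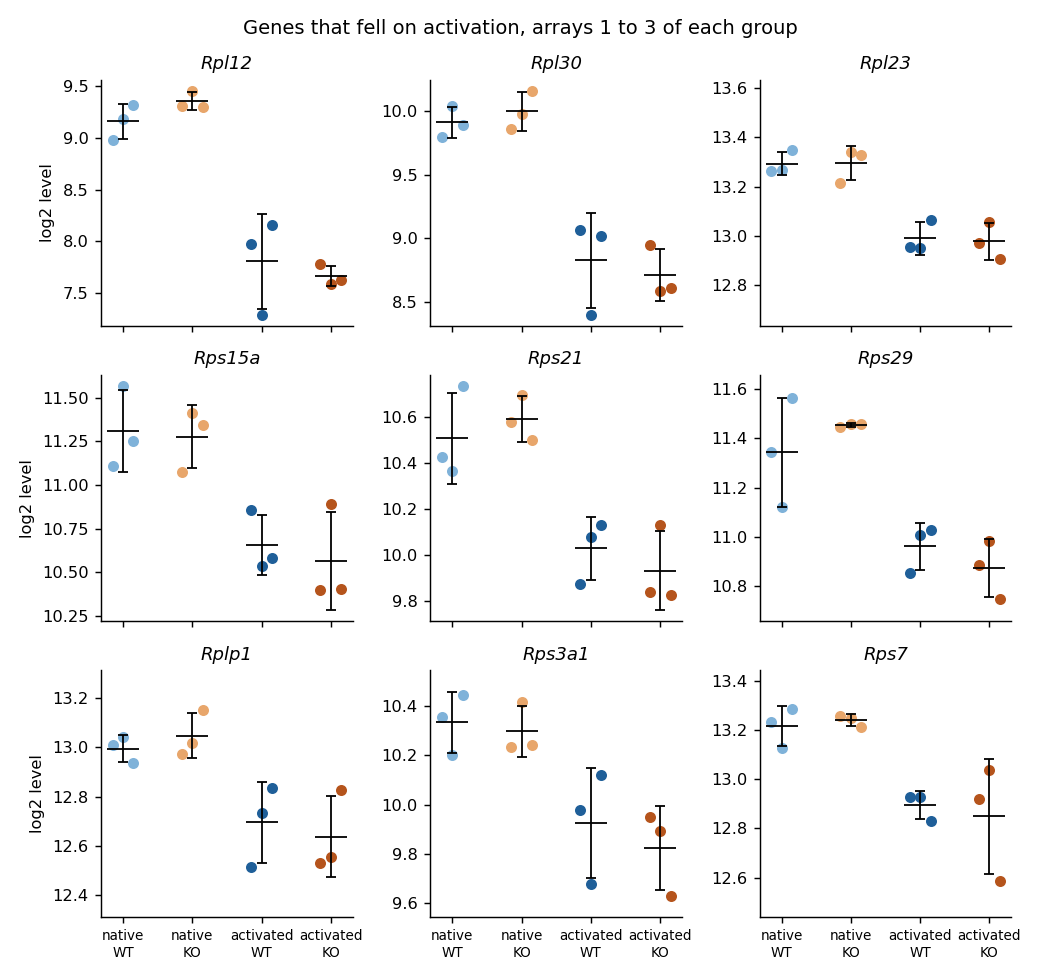
Log2 level (vertical axis, a separate scale for each gene) of the 9 ribosomal protein genes called lower on activation in at least 1 genotype, on arrays 1, 2 and 3 of each group from left to right; black bars are group means ± SD (n = 3). In all 9 panels the activated arrays of a genotype lie below its native arrays.

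The other stalk proteins lay below 0 without passing the test. Rplp0, which anchors the stalk, differed by -0.10 ± 0.10 in WT and -0.14 ± 0.10 in KO. Rplp2 differed by -0.42 ± 0.21 in WT (adjusted p = 0.215) and -0.59 ± 0.21 in KO (adjusted p = 0.0772). It read 9.53, 9.78 and 10.21 in native KO and 8.84, 9.22 and 9.70 in activated KO cells, which overlap. Without activated KO array 3 the KO difference was -0.81 and was called (adjusted p = 0.00791).

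Of the members with known roles outside the ribosome or in disease, those named next gave values within 0.35 of 0, except Rps7 in KO (-0.39). Rpl23 and Rps7, which bind MDM2, were called lower as given above, Rpl23 in both genotypes and Rps7 in KO. Rpl5, a partner of 5S ribosomal RNA that binds MDM2, differed by -0.14 ± 0.10 in both genotypes. Rpl26, which acts on p53 translation, differed by 0.11 ± 0.15 in WT and -0.19 ± 0.15 in KO. Rpl22, whose loss arrests alpha beta T cell development, differed by 0.33 ± 0.18 in WT (adjusted p = 0.260) and 0.09 ± 0.18 in KO (adjusted p = 0.816). It read 8.22, 8.36 and 8.50 in native WT and 8.56, 8.66 and 8.86 in activated WT cells, just apart, and its KO value turned to -0.14 without activated KO array 2. Rpl10, near the peptidyl transferase centre, differed by 0.02 ± 0.09 and -0.10 ± 0.09 in WT and KO. Rpl38, needed for translation of some Hox messages, differed by -0.10 ± 0.11 and -0.22 ± 0.11.

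On the small subunit, Rpsa, the laminin receptor precursor, differed by -0.10 ± 0.12 in WT and -0.24 ± 0.12 in KO. Rps3, of the mRNA entry channel, differed by -0.05 ± 0.12 and -0.22 ± 0.12. Rps14 and Rps19, whose loss underlies anaemias, differed by -0.16 ± 0.16 and 0.01 ± 0.14 in WT and by -0.23 ± 0.16 and -0.21 ± 0.14 in KO. None of these passed the test in either genotype. Rpl11 and Rpl13a were not analysed here as members.

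Rps2, of the mRNA entry channel, stood out on the other side. It read 12.24, 12.30 and 12.41 in native WT and 12.44, 12.53 and 12.73 in activated WT cells. In KO cells it read 12.28, 12.30 and 12.17 before and 12.55, 12.44 and 12.72 after activation. Every activated array lay above every native array of its genotype, by 0.25 ± 0.11 in WT (adjusted p = 0.166) and 0.32 ± 0.11 in KO (adjusted p = 0.0688), so the test was not passed. Another of its 3 rows differed by 0.40 ± 0.11 in WT (adjusted p = 0.0192 over all rows of the table) and 0.34 ± 0.11 in KO (0.0408). In the 17 rows that carry Rps2 with another symbol the differences ran from 0.17 to 0.27 in WT and 0.16 to 0.27 in KO, with 0 called. Rpl24 and Rpl7a also lay above 0 in both genotypes, Rpl24 at 0.22 ± 0.13 in each and Rpl7a at 0.14 ± 0.09 in WT and 0.12 ± 0.09 in KO, without passing.

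The size of a fall depended on which row of a gene was read. Ribosomal protein genes have many processed copies in the genome, and probes can read the gene and its copies alike. The table held 210 rows with 1 member symbol (17 genes with a single row and 38 with several, of which 12 rows repeat the values of another), and 235 more that carry several symbols with a ribosomal one among them. The files used here do not place each row's probes on the genome, so the coordinates above are those of the gene in the gene table. The 3 genes with the largest falls, Rpl12, Rpl30 and Rps15a, each had 1 row of their own, of lower level than most rows that they share with other symbols.

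For Rpl12 that row had a mean of 8.50, while 8 shared rows had a median mean of 12.97. Differences on the shared rows had a median of -0.14 in WT and -0.34 in KO, and 1 of 8 was called lower in WT and 8 of 8 in KO (fit over all rows). The shared row with the largest fall (-1.29 ± 0.26 in WT and -1.57 ± 0.26 in KO) had a mean of 8.40 and also carried Snora65, a small nucleolar RNA. For Rpl30 the row of its own had a mean of 9.36, and the 10 shared rows, at 12.20 to 13.59, differed by -0.29 to -0.21 in WT (0 of 10 called) and by -0.47 to -0.38 in KO (10 of 10 called lower). For Rps15a the 2 shared rows differed by -0.30 in WT and by -0.40 and -0.38 in KO, with 0 called. The direction was thus down on every row of these genes, and the size differed between rows.

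Rps29 behaved alike on all of its 4 rows, with differences of -0.38 to -0.33 in WT (1 called) and -0.58 to -0.55 in KO (4 called). Rps21 fell on both of its rows in KO, by 0.66 and 0.72 on the log2 scale. Rps13 had the most extreme row of all: a row shared with the small nucleolar RNA Snord14a differed by -2.61 ± 0.27 in WT and -2.62 ± 0.27 in KO. The 3 rows of Rps13 alone differed by -0.41 to -0.34 in WT and -0.63 to -0.47 in KO, with 0 and 1 called. Some genes without a row of their own moved as much as members: both rows shared by Rps27 and Rps27rt differed by -0.76 and -0.79 in WT and by -1.03 and -1.08 in KO, all called lower.

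**Figure D4:**
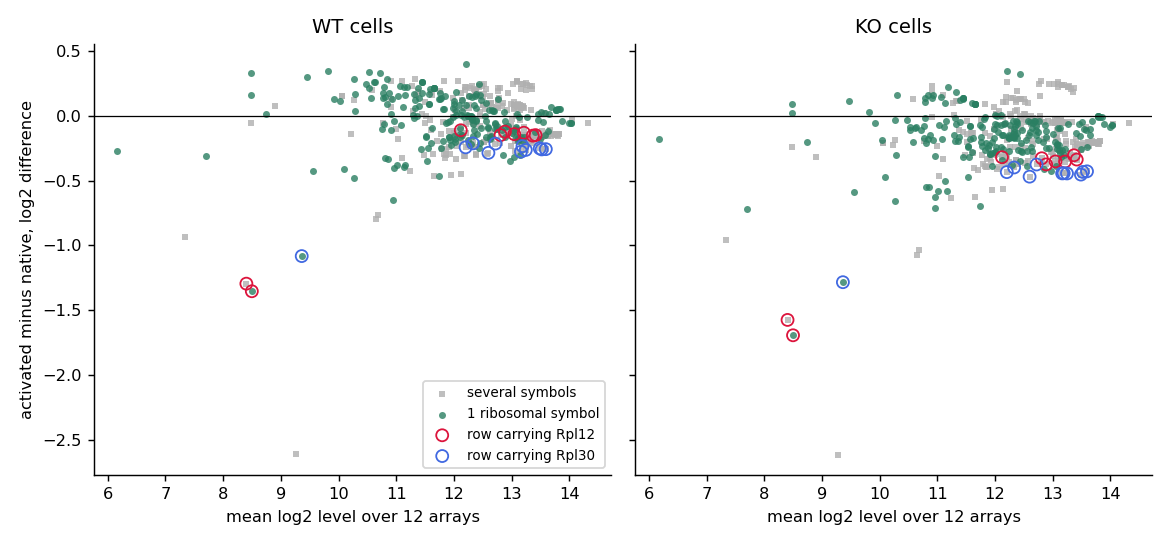
Activated minus native difference in log2 level (vertical axis) against the mean log2 level over 12 arrays (horizontal axis), for 210 rows with 1 ribosomal symbol (green) and 235 rows with several symbols (grey), in WT and KO cells; red circles mark rows carrying Rpl12 and blue circles rows carrying Rpl30. The 4 largest falls in each genotype lie in rows with a mean below 10, while the rows of the same genes above 12 lie within 0.5 of 0.

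Over all rows, 1 of the 210 single-symbol rows was called higher and 7 lower in WT, and 1 and 18 in KO. Of the 235 rows with several symbols, 0 were called higher and 11 lower in WT, and 0 and 44 in KO. In the same fit 7.75% of all rows of the table were called higher and 13.9% lower in WT, and 7.16% and 14.0% in KO. The ribosomal rows called lower were thus under that share in WT, and in KO those with 1 symbol were under it and those with several above it. Rows of a gene share sequence and are not independent. Among the 55 members the size of the activation difference fell with the level, with a Pearson's r of -0.48 and a Spearman's rho of -0.37 in WT and -0.38 and -0.22 in KO. The 44 genes with a start window divided into 9 with the TOP start, at a median of -0.08 in WT and -0.19 in KO, and 35 without it, at -0.04 and -0.16.

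Other genes of the translation machinery were set beside the members. For reference, 9.72% of all genes were called higher and 10.9% lower in WT, and 8.72% and 11.4% in KO. Fau, which encodes the small-subunit protein fused to a ubiquitin-like domain, differed by -0.16 ± 0.12 in WT and -0.36 ± 0.12 in KO, where it was called lower (adjusted p = 0.0462). A list of 15 genes outside the members known for TOP messages held Fau and overlapped with the lists below. Of these 15, 1 was called lower in WT and 2 in KO. Only 1 rose in both genotypes, Vim, a filament protein, by 0.96 ± 0.13 in WT and 0.80 ± 0.13 in KO. Tpt1, the translationally controlled tumour protein, fell in both, by 0.29 and 0.34 on the log2 scale. Eef1a1 and Eef2, the main elongation factors, differed by 0.10 ± 0.09 and 0.06 ± 0.09 in WT and by 0.06 ± 0.09 and 0.01 ± 0.09 in KO. Of 6 measured elongation factor genes 2 were called higher in WT and 1 in KO, and 0 lower in either. The largest difference among the 6 was 0.84 in WT and 0.61 in KO.

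Several initiation factors changed. Of 11 measured subunits of eIF3, the factor that prepares the small subunit for the message, 4 rose in WT (Eif3c, Eif3d, Eif3i and Eif3l, by 0.41 to 0.60) and 3 in KO, and 0 fell in either. Of 22 other initiation factors 4 rose and 4 fell in WT, and 4 rose and 3 fell in KO. For both lists, the shares over all genes were 9.72% higher and 10.9% lower in WT, and 8.72% and 11.4% in KO. Eif4ebp1, an inhibitor of cap-dependent translation under mTOR control, rose by 1.77 ± 0.21 in WT (adjusted p = 9.82e-05) and 1.74 ± 0.21 in KO. Eif4a2, a helicase of the cap complex, fell by 1.44 ± 0.27 in WT and fell by 1.65 ± 0.27 in KO on the log2 scale.

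Mitochondrial ribosomal proteins, which serve a separate ribosome, mostly lay above 0. Above 0 were 62 of 77 in WT and 54 of 77 in KO, against 9176 and 10751 of all 19938 genes. Of 77 genes drawn by the prefixes Mrpl and Mrps, 16 rose and 1 (Mrpl41) fell in WT, and 15 rose and 0 fell in KO. Among all genes 9.72% rose and 10.9% fell in WT, and 8.72% rose and 11.4% fell in KO. Their median difference was 0.27 in WT and 0.20 in KO, where that of the cytosolic genes was -0.05 and -0.18. Mrpl45 rose by 1.24 ± 0.23 in WT and 1.20 ± 0.23 in KO, and Mrpl51 by 1.23 ± 0.28 and 1.25 ± 0.28. The difference between the lists was not tested.

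Among 16 regulators of ribosome production, 2 rose and 3 fell in WT and 1 rose and 4 fell in KO. The shares over all genes were 9.72% higher and 10.9% lower in WT, and 8.72% and 11.4% in KO. Mycn, a MYC family factor, rose by 1.96 ± 0.40 in WT and 2.28 ± 0.40 in KO. Myc, a driver of ribosomal gene transcription, differed by 0.38 ± 0.22 in WT and -0.09 ± 0.22 in KO, without passing. Pdcd4, an inhibitor of the eIF4A helicase, fell by 1.20 ± 0.20 in WT and 0.90 ± 0.20 in KO on the log2 scale, and Eef2k, the kinase that slows elongation, by 0.87 ± 0.15 and 0.56 ± 0.15. Of 6 paralogs left out of the members, Rps27l alone was called, with a rise of 1.77 ± 0.22 in WT (adjusted p = 0.000135) and 1.75 ± 0.22 in KO. It is known as a p53 target.

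The second question was whether loss of Aire changed these genes. In native cells 0 of the 55 were called in either direction, as were 0 of all genes (0.00%), and at an unadjusted p under 0.05 it was 0 of the 55 and 131 of all. No member had all 3 KO arrays above or all 3 below the WT arrays, which 2.12% and 4.92% of all genes did. Differences were small, from -0.17 to 0.20, with a median of 0.05 (all genes -0.02). They lay above 0 for 44 of 55 members, against 40.1% of all genes. At a mean of 11 or more they did so for 34 of 40 members, against 46.4% of the 448 other genes. Set against the WT array of the same number, KO array 1 lay higher for 40 members, KO array 2 for 43 and KO array 3 for 25, with medians of 0.05, 0.09 and -0.02, so the direction was seen in 2 of the 3 pairs. The members with the smallest p in each direction were Rpl36 (0.16 ± 0.13) and Rpl34 (-0.17 ± 0.15), followed by Rpl26 (0.17 ± 0.15) and Rpl12 (0.20 ± 0.19). The value of Rpl34 is that of its single row, with a mean of 10.91, and its 4 brighter shared rows lay on the other side of 0, at 0.05 to 0.08.

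In activated cells 0 of the 55 were likewise called (0.00% of all genes in each direction), with 0 at an unadjusted p under 0.05, where 87 of all genes had one. Again no member had groups apart (0.858% of all genes higher and 0.888% lower). The median was -0.08 (all genes -0.01), and 52 of 55 members lay below 0, against 52.3% of all genes. At a mean of 11 or more 39 of 40 members did so, against 61.4% of the 448 other genes. With dim genes left out the median of all genes was -0.06, close to that of the members. Set against the WT array of the same number, KO array 1 lay higher for 26 members, KO array 2 for 35 and KO array 3 for 6, with medians of -0.01, 0.05 and -0.28. The direction of the group means was thus that of the third pair, and the second went the other way. The 3 above 0 were Rps2, Rpl29 and Rps23rg1, each at 0.01 or less after rounding. The smallest p was that of Rpl36, at -0.21 ± 0.13. It read 12.36, 12.63 and 12.66 in activated WT and 12.29, 12.53 and 12.20 in activated KO cells, which overlap.

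The direction of the activated members changed in part with single arrays. Activated KO array 3, the array that stood apart above, gave the lowest value of its group for 33 of the 55 members. Without it the median was -0.03 with 14 members above 0. With arrays weighted by their quality, the median turned to 0.01 with 29 members above 0. Without activated WT array 3, the highest of its group for 33 members, 17 lay above 0. In native cells, native WT array 3 was the highest of its group for 43 members and native WT array 2 the lowest for 32. Without native WT array 2 the native median was 0.01, with 35 members above 0.

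In the mean of both states 0 members were called (0.00% of all genes), with 0 at an unadjusted p under 0.05, and the median difference was -0.01, with 39 of 55 below 0 (58.6% of all genes). The test of whether activation acted differently in the genotypes, the interaction, called 0 members and 0 of all genes (0.00%), with 0 members and 86 of all genes at an unadjusted p under 0.05. Of the 55 interaction terms 50 lay below 0, with a median of -0.11, against 46.6% of all genes below 0. At a mean of 11 or more 38 of 40 members lay below 0, against 58.5% of the 448 other genes. Without activated KO array 3 or without activated WT array 3, 42 of the 55 terms lay below 0, with medians of -0.07 and -0.10. With array weights 36 did so (median -0.04), and without activated KO array 2 it was 51 (median -0.17). The 44 members above 0 in native cells were all below 0 in activated cells. Rpl36 had the smallest p, at -0.37 ± 0.18 (limma, unadjusted p = 0.064), and Rpl12 stood at -0.34 ± 0.27. The larger count of falls in KO cells than in WT cells, 9 against 6, is therefore not shown to be a difference between genotypes.

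**Figure D5:**
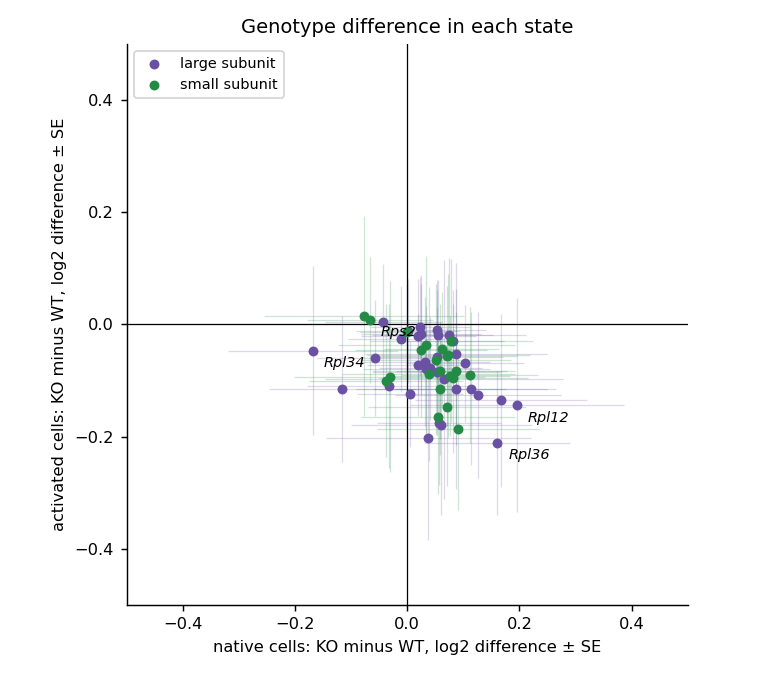
KO minus WT difference in log2 level in activated cells (vertical axis) against native cells (horizontal axis) for the 55 genes, by subunit, with thin lines for ± SE of the limma fit (n = 3 arrays per group). All points lie within 0.25 of 0 on both axes, 44 of them above 0 in native and below 0 in activated cells, and the differences are of the size of their errors.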

How the data were processed

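Total RNA was labelled as sense DNA and hybridised to 12 Affymetrix whole-transcript arrays, per the labels' protocols. The authors deposited log2 expression values of 35556 transcript clusters (called rows here), for which the submitters' processing notes name Partek and RMA with neither versions nor options. In its usual form RMA aligns arrays and compresses differences near background, so a shift shared by most transcripts would not show. Rows were named through the platform annotation and the RefSeq gene table of GRCm38.p6: 21789 had 1 symbol, 1621 several and 12146 none, and 21698 matched the gene table.

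Group means were fitted with limma 3.58.1 (R 4.3.3; lmFit, eBayes) over all 12 arrays, with Benjamini-Hochberg adjustment over 19938 genes and calls at 0.05. Rows were fitted again over the whole table. All errors of differences are standard errors with 3 arrays per group. The procedure was tested on simulated data. No filter on dim genes was used. Array number limits the precision.

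Genes of the same families without a single-symbol row were not analysed here as members.

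Members, lists and named genes were chosen with earlier results of these data known. Named were up to 5 called members per direction and comparison, or else the 3 smallest p-values. Also named were a list of members with known roles and the highest, lowest and most variable members. From each companion list other than the elongation factors, the largest called gene was named. Rpl23, Rps3a1, Rps7, Rps13, Rpl21, Rps23rg1, Rps27 and the further companion genes were named after their values were seen.

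Replicate numbers were checked for pairing through the correlation of deviations from group means over all genes. Between native KO and WT arrays of the same number it was 0.580, 0.396 and 0.157, and between activated ones 0.694, -0.017 and -0.013. The descriptions also give the KO and WT arrays of a state and replicate 1 shared number, whose meaning they do not state, so values within these pairs are given for both states. Alternatives were another normalization or centring, array weights, another prior, all rows of a gene averaged, dim genes left out, only the groups compared, the replicate number as a block, and each array left out.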

Additional observations from a re-analysis of the deposited data

How the results depend on the processing

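Over 133 results, 2816 of 2895 values under alternatives kept direction and side of the threshold, or stayed within the replicate spread or 1.5 times the count, and 0 called results reversed. Rpl12 and Rpl30 were called lower in both genotypes under each of 21 alternatives. With array weights 12 members fell and 2 rose in WT and 3 fell in KO. Of 19938 genes 3986 fell and 3623 rose in WT and 1528 fell in KO in that fit. With only the 2 groups compared in the fit, 5 fell in KO, where 1394 of 19938 genes did. Leaving out 1 array gave 3 to 10 falls in WT (3 without native WT array 3 or activated WT arrays 1 or 2, and 10 without activated KO array 3). The number of all 19938 genes that fell in WT ranged from 1439 to 3219 in these fits and was highest without activated KO array 3. In KO it gave 4 to 11 falls (4 without native KO array 2 and 5 without native KO array 3), and 0 to 1 rises (1, Rps2, without activated KO array 2). Of all genes 1535 to 2683 fell in KO, with 1600 without native KO array 2 and 1692 without native KO array 3. Without activated KO array 2, 1539 of all genes rose in KO. The cause was not tested.

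With the replicate number as a block, 5 members fell in WT and 11 in KO, where 2397 and 2523 of 19938 genes fell. The WT call of Rps29 was lost (adjusted p = 0.0604), and 0 members were called in any KO and WT comparison. Alternatives chosen after seeing the data were the number in the descriptions as a block, fitted for the KO and WT comparisons and the interaction (0 called, as without it), and the members without Rps23rg1, which left each count within 1.5 times. The former could not be fitted for activation, since no such number holds both native and activated arrays. The number of arrays, a level near the top of the scale for most members and one near background for Rps23rg1 limit what differences could be seen.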
